A study of Mus musculus with 9 samples.

Results

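The genes described here are 51 genes of the cell division cycle, of 25526 names in a table of mouse lung expression. They were taken from a list of symbols that names the replication machinery used around the start of S phase (22 genes, called replication or G1/S genes below) and the machinery of chromosome condensation, spindle assembly and cytokinesis (29 genes, called mitotic or G2/M genes). All 51 symbols were found in the table, and all 51 passed the filter on low values, which asked for at least 1 FPKM in at least 3 of the 9 libraries and left 14540 genes. FPKM counts the fragments sequenced from a transcript, scaled to its length and to the size of the library. The 9 libraries came from the lungs of 9 mice: 3 mice given PepNzymeSOD-CAT, an inhalable polypeptide nanozyme (a synthetic assembly with enzyme-like activity), 3 mice with a pulmonary fibrosis model, and 3 normal mice. They are called the nanozyme, model and normal groups. The title and design place the nanozyme in pulmonary fibrosis, but the labels do not state that nanozyme mice also received the fibrosis model. Strain, sex, age, the inducer of fibrosis, the doses, the vehicle and the times of treatment and sampling are not given in the sources used here. Unless stated otherwise, a change is a log2 fold change ± SE on the log2(FPKM + 1) scale from a limma fit over all tested genes and all 9 libraries, and p-values are Benjamini-Hochberg adjusted over those genes with a threshold of 0.05. The added pseudocount of 1 understates the changes of genes near 1 FPKM.

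A cell that leaves quiescence first loads the MCM helicase onto replication origins, then fires those origins and copies its DNA, and later condenses and segregates the chromosomes. The transcripts for the first task are switched on by E2F transcription factors, and those for the last by the MuvB complex acting with B-MYB and FOXM1. In quiescent cells both sets are held down by the retinoblastoma family. The adult lung is a slowly renewing tissue in which few cells divide at any time, whereas epithelial, endothelial, stromal and immune cells can re-enter the cycle after injury. A transcript level from whole lung therefore reflects both how many cells are cycling and how much RNA each holds, and these cannot be told apart in these data.

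FPKM sums ran from 443746 to 519772 per library, and read depth is unknown because only FPKM values were used. On the first principal component of all tested genes, with 62.8% of the variance, nanozyme replicates 1 and 3 scored -14.4 and -9.68 and nanozyme replicate 2 scored 43.3, where the range was 39.5 to 61.2 for model and -63.5 to -54.8 for normal lung. The nanozyme group thus contains 1 library that stands with the model libraries, so counts of called genes in nanozyme lung are given below with and without it. Lung identity was clear: 10 of 10 epithelial markers, among them Sftpc, Scgb1a1 and Ager, passed the filter. In model lung 5 of them fell and 0 rose, where 22.7% of all tested genes were called lower and 17.4% higher. The 10 markers summed to 36889 to 58208 FPKM in nanozyme, 18586 to 28852 FPKM in model and 82656 to 104201 FPKM in normal libraries. Scgb1a1 and Sftpc held most of each sum. Sftpd was not called, but its model libraries (1225, 1289 and 1074 FPKM) lay above its normal ones (728, 865 and 785 FPKM).

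The fibrosis model carried a near-complete rise of the cell cycle set. In model against normal lung 49 of the 51 genes rose and 0 fell, where 17.4% of all tested genes were called higher and 22.7% lower, and the 2 genes not called were Ect2 and Stmn1. All 22 replication genes and 27 of the 29 mitotic genes rose. Of the genes that rose, Cdc6, Mcm10, E2f8, Chek1, Foxm1, Ttk, Cenpe and Cenpf were below 1 FPKM in every normal library. They passed the filter only through the nanozyme and model libraries, where they were high. With no filter the count of genes that rose was also 49. The median change was 1.17 over the replication genes and 1.21 over the mitotic genes, against a median of -0.12 over all tested genes. For 32 of the 51 genes the rise was at least 2-fold on this scale, where 9.04% of tested genes had such a rise. The 3 model libraries lay above the 3 normal libraries for 50 genes, the exception being Stmn1, and the same was true of 23.5% of all tested genes.

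The rise was also present in nanozyme lungs. Against normal lung 46 of the 51 genes were higher in nanozyme lung and 0 lower, where 8.39% of all tested genes were called higher and 5.50% lower, and 32 were at least 2-fold higher, where the share of all tested genes was 4.45%. The 5 genes not called were Cks2, Aurka, Cenpf, Ect2 and Stmn1. All 22 replication genes and 24 mitotic genes rose, with medians of 1.05 and 1.11 against -0.0086 over all tested genes. Every nanozyme library lay above every normal library for 50 genes, with 22.1% of tested genes as the background, the exception being Ect2. The count of 46 was 34 without normal replicate 3 and 36 without normal replicate 1, and the calls of Cdc20, Cdc6, Prc1 and Pcna were among those that ended in each case. With no filter the count was 41. Both comparisons share the normal libraries, so their similarity is not independent evidence.

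**Figure D1:**
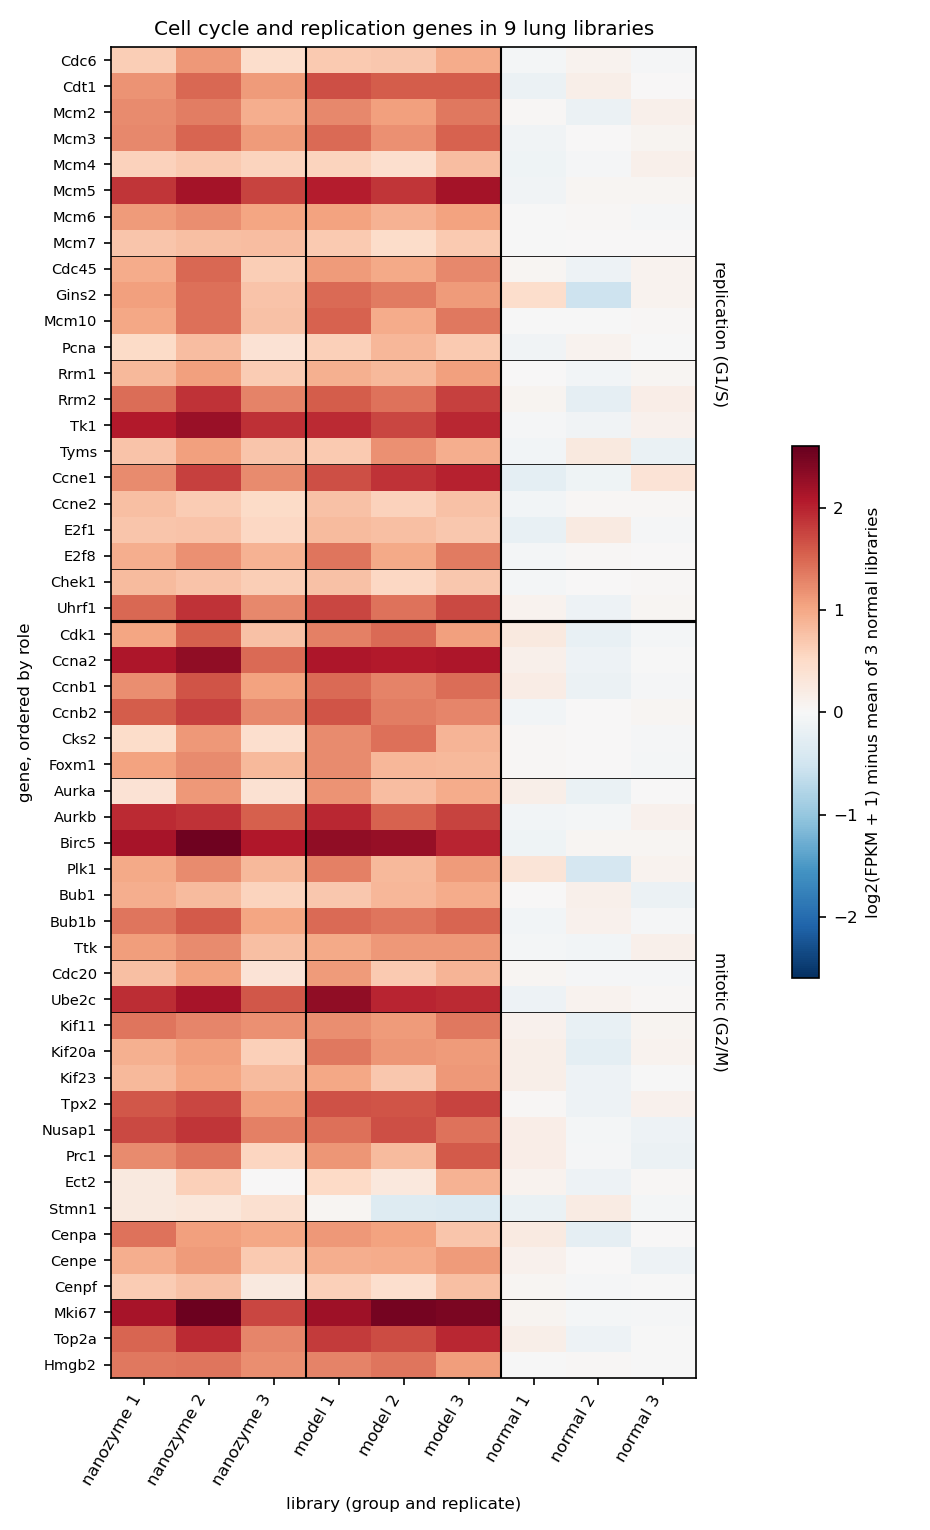
Heat map of 51 cell cycle and replication genes (rows, ordered by role, replication above the thick line and mitotic below) in 9 lung libraries (columns). Colour is log2(FPKM + 1) minus the mean of the 3 normal libraries. Nanozyme and model columns are red in nearly every row, while Stmn1 stays pale and Ect2 is pale in nanozyme replicate 3.

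Motif matches in the proximal promoters were spread unevenly over the replication and the mitotic genes. RefSeq promoter windows of GRCm38.p6, each 300 bases long with 250 before and 50 after the start of transcription, were available for 42 of the 51 genes (46 windows: 21 replication, 25 mitotic). Windows were searched on both strands for 3 motifs: the E2F motif in 4 spellings (TTTCCCGC, TTTGGCGC, TTTCGCGC and TTTGCCGC), the cell cycle genes homology region or CHR (TTTGAA), which binds MuvB, and the box bound by the factor NF-Y (CCAAT). An E2F match was found in 7 of 21 replication windows (33.3%), 1 of 25 mitotic windows (4.0%) and 2.27% of 32851 windows of all genes. A CHR match was found in 3 of 21 replication windows (14.3%), 19 of 25 mitotic windows (76.0%) and 17.9% of all windows. NF-Y boxes were found in 14 replication windows (66.7%), 23 mitotic windows (92.0%) and 37.4% of all windows. The mitotic genes Ect2 and Prc1 each have 2 overlapping windows that hold the same CHR and NF-Y matches, and each window was counted. Both a CHR match and an NF-Y box were found in 47.8% of the 46 windows of the set and in 6.95% of all windows. In the 13622 windows of tested genes the shares were 3.68% for E2F, 12.3% for CHR and 37.1% for NF-Y boxes. A CHR match with an NF-Y box was found in 4.85% of these windows. A match is a run of letters and does not show binding.

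The windows of 6 genes are printed to show the contrast, with 3 of each kind: the genes with the largest rise in model lung among those that have a single window and a match to E2F (replication) or CHR (mitotic). They are Mcm5 at chr8:75109259-75109558 on the plus strand, Cdt1 at chr8:122567765-122568064 on the plus strand, Mcm3 at chr1:20820263-20820562 on the minus strand, Mki67 at chr7:135716330-135716629 on the minus strand, Ube2c at chr2:164769679-164769978 on the plus strand and Top2a at chr11:99024140-99024439 on the minus strand. Each is read 5′ to 3′ on the gene's strand, and capitals mark E2F, CHR and NF-Y matches on either strand.
Mcm5: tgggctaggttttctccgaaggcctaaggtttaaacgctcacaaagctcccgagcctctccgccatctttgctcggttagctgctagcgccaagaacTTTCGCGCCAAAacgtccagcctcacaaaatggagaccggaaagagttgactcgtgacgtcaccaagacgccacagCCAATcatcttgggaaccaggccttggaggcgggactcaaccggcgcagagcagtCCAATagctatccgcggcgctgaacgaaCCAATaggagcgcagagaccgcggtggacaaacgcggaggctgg
Cdt1: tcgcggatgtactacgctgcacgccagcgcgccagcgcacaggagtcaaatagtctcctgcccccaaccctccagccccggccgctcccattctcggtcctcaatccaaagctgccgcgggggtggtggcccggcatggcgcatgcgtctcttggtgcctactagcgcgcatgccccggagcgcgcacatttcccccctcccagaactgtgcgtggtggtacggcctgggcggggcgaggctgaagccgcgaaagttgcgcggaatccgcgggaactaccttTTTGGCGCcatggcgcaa
Mcm3: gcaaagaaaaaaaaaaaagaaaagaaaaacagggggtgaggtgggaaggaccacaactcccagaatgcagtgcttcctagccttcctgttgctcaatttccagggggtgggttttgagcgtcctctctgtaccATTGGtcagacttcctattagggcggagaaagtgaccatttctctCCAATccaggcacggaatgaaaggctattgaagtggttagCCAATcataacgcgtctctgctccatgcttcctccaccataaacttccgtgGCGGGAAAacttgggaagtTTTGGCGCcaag
Mki67: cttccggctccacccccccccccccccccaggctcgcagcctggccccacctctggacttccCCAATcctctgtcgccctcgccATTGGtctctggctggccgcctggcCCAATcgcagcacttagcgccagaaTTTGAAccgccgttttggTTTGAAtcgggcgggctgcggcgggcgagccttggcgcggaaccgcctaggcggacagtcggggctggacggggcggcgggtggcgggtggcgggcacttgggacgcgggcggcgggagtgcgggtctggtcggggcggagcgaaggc
Ube2c: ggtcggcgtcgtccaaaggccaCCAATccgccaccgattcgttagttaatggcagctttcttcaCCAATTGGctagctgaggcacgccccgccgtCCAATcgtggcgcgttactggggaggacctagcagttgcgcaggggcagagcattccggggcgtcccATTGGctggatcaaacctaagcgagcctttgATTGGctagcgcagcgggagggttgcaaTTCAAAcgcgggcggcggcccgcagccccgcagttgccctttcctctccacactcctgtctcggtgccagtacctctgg
Top2a: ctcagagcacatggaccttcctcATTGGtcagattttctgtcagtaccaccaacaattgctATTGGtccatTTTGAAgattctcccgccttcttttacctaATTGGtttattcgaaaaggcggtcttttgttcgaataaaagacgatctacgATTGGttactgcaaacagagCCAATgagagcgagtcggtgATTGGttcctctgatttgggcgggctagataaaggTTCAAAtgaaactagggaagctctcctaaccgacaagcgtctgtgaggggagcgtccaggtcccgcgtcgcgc

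In the Mcm5 window the first capital run holds 2 overlapping E2F matches on opposite strands, and 3 NF-Y boxes follow it. The Cdt1 window has 1 E2F match close to its 3′ end and no other match. Mcm3 has 2 E2F matches downstream of its transcription start and 3 NF-Y boxes upstream. Mki67 has 2 CHR matches behind 3 NF-Y boxes and no E2F match. Ube2c holds 6 NF-Y boxes, of which 2 overlap on opposite strands, and 1 CHR match read on the minus strand of the window. Top2a has 1 CHR match between NF-Y boxes and 1 downstream of all 6 boxes. Tk1 and Birc5, whose rises in model lung were among the 6 largest of the set, had none of the 3 motifs in their windows.

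**Figure D2:**
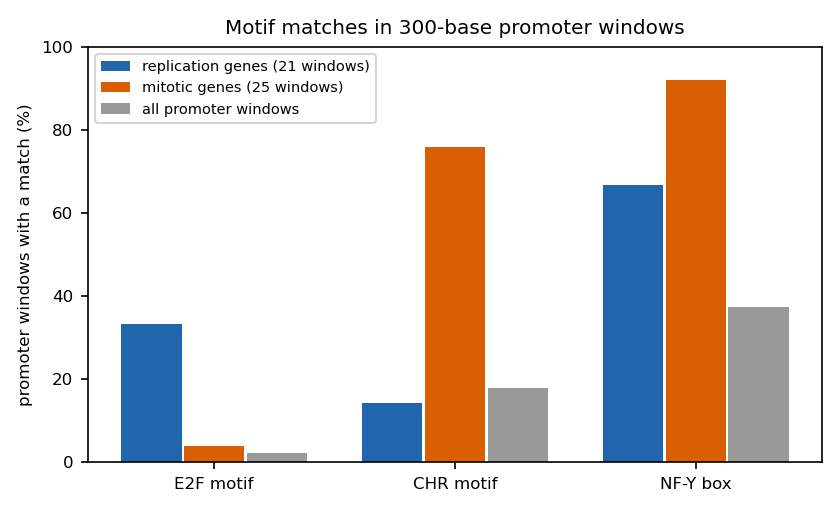
Share of 300-base promoter windows (vertical axis, %) with at least 1 match to the E2F motif, the CHR motif or the NF-Y box, for 21 windows of replication genes, 25 windows of mitotic genes and 32851 windows of all genes. The E2F bar is highest for replication genes (33.3%) and the CHR bar for mitotic genes (76.0%).

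The origin licensing genes rose as a group. Mcm2 to Mcm7 encode the 6 subunits of the replicative helicase, and Cdc6 and Cdt1 encode the factors that load it onto origins. All 8 rose in model lung, with adjusted p from 9.95e-05 to 0.0118, but by different amounts. Mcm7 was the most abundant over all libraries, with 18.2, 19.1 and 19.4 FPKM in nanozyme lungs, 17.8, 15.4 and 17.8 FPKM in model lungs and 10.5, 10.8 and 10.7 FPKM in normal lungs. Mcm6 was at 18.7, 20.2 and 17.6 FPKM in nanozyme lungs, 18.1, 16.2 and 17.9 FPKM in model lungs and 8.12, 8.45 and 8.03 FPKM in normal lungs. Mcm3 was at 15.4, 18.5 and 13.7 FPKM in nanozyme lungs, 17.99, 14.6 and 18.99 FPKM in model lungs and 5.45, 5.95 and 6.22 FPKM in normal lungs. For all 3 genes the nanozyme and model libraries lay above every normal library. Mcm5 had the steepest rise of the helicase genes, with 13.98, 17.4 and 12.97 FPKM in nanozyme lungs, 15.99, 13.9 and 17.5 FPKM in model lungs and 2.85, 3.25 and 3.24 FPKM in normal lungs. Its change was 2.03 ± 0.13, adjusted p = 9.95e-05 in model against normal lung and 1.93 ± 0.13, adjusted p = 0.000259 in nanozyme against normal lung. Mcm4 had the smallest change of the 6 subunits (0.60 ± 0.12, adjusted p = 0.00581 in model lung), and Mcm7 a change of similar size (0.62 ± 0.09, adjusted p = 0.00184). Mcm7 stood above Mcm5 by FPKM in every library of the 3 groups. The ranges of the 2 genes overlapped in model lung and were apart in nanozyme and normal lung. Of the loaders, Cdt1 was at 6.97, 8.95 and 6.66 FPKM in nanozyme lungs, 10.4, 9.56 and 9.56 FPKM in model lungs and 2.195, 2.93 and 2.56 FPKM in normal lungs and changed by 1.61 ± 0.13, adjusted p = 0.000209 in model lung. Cdc6, near the low end of the set, was at 1.38, 2.32 and 1.09 FPKM in nanozyme lungs, 1.47, 1.49 and 1.98 FPKM in model lungs and 0.468, 0.621 and 0.506 FPKM in normal lungs and changed by 0.78 ± 0.19, adjusted p = 0.0118.

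At the replication fork, Cdc45 and the GINS subunit Gins2 complete the active helicase, Mcm10 helps to start it, and Pcna encodes the sliding clamp that holds DNA polymerase on its template. All 4 rose in model lung (adjusted p from 0.00263 to 0.00652). Pcna was by far the most abundant replication gene, with 73.4, 91.01 and 67.6 FPKM in nanozyme lungs, 80.9, 94.99 and 83.99 FPKM in model lungs and 48.99, 55.7 and 51.5 FPKM in normal lungs. It was detected at a high level in every normal library and changed by only 0.72 ± 0.13, adjusted p = 0.00393 in model lung and 0.55 ± 0.13, adjusted p = 0.0269 in nanozyme lung. Pcna has pseudogene copies in the mouse, so part of this level may be shared reads and the single value is uncertain. Gins2 was at 6.37, 8.47 and 4.87 FPKM in nanozyme lungs, 8.78, 7.93 and 6.54 FPKM in model lungs and 3.79, 1.41 and 2.75 FPKM in normal lungs. Its normal libraries were the most scattered of this group, and the change in model lung was 1.31 ± 0.27, adjusted p = 0.00652. Cdc45 was at 4.14, 6.43 and 3.08 FPKM in nanozyme lungs, 4.63, 4.21 and 5.26 FPKM in model lungs and 1.71, 1.39 and 1.82 FPKM in normal lungs and Mcm10 at 1.73, 2.69 and 1.29 FPKM in nanozyme lungs, 2.92, 1.67 and 2.499 FPKM in model lungs and 0.346, 0.349 and 0.387 FPKM in normal lungs. Nanozyme replicate 3 was the lowest and nanozyme replicate 2 the highest nanozyme library for all 4 genes.

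Nucleotide supply genes rose as well. Ribonucleotide reductase, with its large subunit Rrm1 and its cell cycle regulated small subunit Rrm2, makes deoxyribonucleotides, while thymidine kinase (Tk1) and thymidylate synthase (Tyms) provide thymidine nucleotides. Rrm1 was at 16.3, 18.96 and 14.1 FPKM in nanozyme lungs, 17.2, 16.2 and 18.9 FPKM in model lungs and 8.69, 8.13 and 8.96 FPKM in normal lungs. Rrm2 was at 10.7, 14.6 and 9.37 FPKM in nanozyme lungs, 11.7, 10.4 and 13.6 FPKM in model lungs and 3.45, 2.64 and 3.77 FPKM in normal lungs. The changes of the 2 subunits were 0.94 ± 0.12, adjusted p = 0.0011 for Rrm1 and 1.59 ± 0.18, adjusted p = 0.00069 for Rrm2 in model lung, and the difference between them was not tested. Tk1 was at 11.9, 13.7 and 10.6 FPKM in nanozyme lungs, 10.9, 9.29 and 11.1 FPKM in model lungs and 2.05, 1.93 and 2.35 FPKM in normal lungs, and it had after Mcm5 the largest rise of the replication genes in model lung (1.88 ± 0.12, adjusted p = 0.0001) and the largest in nanozyme lung (2.07 ± 0.12, adjusted p = 0.0002). Tyms was at 4.75, 6.27 and 4.72 FPKM in nanozyme lungs, 4.503, 6.89 and 5.63 FPKM in model lungs and 2.26, 3.09 and 2.08 FPKM in normal lungs, with a change of 0.94 ± 0.18, adjusted p = 0.00493 in model lung. No normal library of these 4 genes reached a nanozyme or model library.

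Regulators of the G1/S step followed. Cyclins E1 and E2 drive CDK2 at the entry into S phase, E2f1 is an activating and E2f8 a repressive E2F factor, Chek1 encodes the replication checkpoint kinase, and Uhrf1 recruits maintenance DNA methylation to newly copied DNA. All 6 rose in model lung (adjusted p from 0.000537 to 0.00485) and in nanozyme lung. E2f1 was at 7.38, 7.50 and 6.30 FPKM in nanozyme lungs, 7.88, 7.67 and 7.23 FPKM in model lungs and 3.44, 4.92 and 3.93 FPKM in normal lungs. Ccne1 was at 2.85, 4.67 and 2.89 FPKM in nanozyme lungs, 4.303, 5.103 and 5.64 FPKM in model lungs and 0.395, 0.523 and 1.12 FPKM in normal lungs. Ccne2 was at 3.29, 2.99 and 2.53 FPKM in nanozyme lungs, 3.26, 2.79 and 3.27 FPKM in model lungs and 1.38, 1.57 and 1.58 FPKM in normal lungs. All normal libraries of these 3 genes lay below the others. Ccne1 changed by 1.86 ± 0.21, adjusted p = 0.000701 in model lung, and Ccne2 by 0.71 ± 0.12, adjusted p = 0.0032. Uhrf1 was at 7.81, 10.4 and 6.41 FPKM in nanozyme lungs, 9.32, 7.29 and 9.28 FPKM in model lungs and 2.301, 1.83 and 2.22 FPKM in normal lungs, a change of 1.62 ± 0.17, adjusted p = 0.000537 in model lung. Chek1 reached only 1.48, 1.34 and 1.19 FPKM in nanozyme lungs, 1.36, 1.03 and 1.28 FPKM in model lungs and 0.3598, 0.403 and 0.439 FPKM in normal lungs, so its change of 0.66 ± 0.13, adjusted p = 0.00485 is compressed by the pseudocount. E2f8 was at 1.78, 2.26 and 1.69 FPKM in nanozyme lungs, 2.77, 1.83 and 2.66 FPKM in model lungs and 0.387, 0.474 and 0.455 FPKM in normal lungs, again with no overlap with normal lung.

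Among the genes of mitotic entry, Cdk1 and its cyclins A2, B1 and B2 form the kinase that starts mitosis, Cks2 is a small subunit of that kinase, and Foxm1 is a transcription factor of G2/M genes. All 6 rose in model lung (adjusted p from 0.000333 to 0.00332). Ccna2 was at 11.8, 13.7 and 7.26 FPKM in nanozyme lungs, 11.8, 11.5 and 11.8 FPKM in model lungs and 2.26, 1.73 and 1.96 FPKM in normal lungs. Its model libraries were almost equal, the nanozyme libraries spread on both sides of them, and the change was 2.10 ± 0.20, adjusted p = 0.000333 in model lung and 1.96 ± 0.20, adjusted p = 0.000951 in nanozyme lung. Ccnb2 was at 10.8, 12.7 and 8.43 FPKM in nanozyme lungs, 11.4, 9.04 and 8.55 FPKM in model lungs and 2.78, 2.99 and 3.13 FPKM in normal lungs. Cks2, the most abundant of the 6, was at 14.6, 23.5 and 14.2 FPKM in nanozyme lungs, 25.4, 29.1 and 19.8 FPKM in model lungs and 10.4, 10.3 and 9.99 FPKM in normal lungs. Nanozyme replicates 1 and 3 of Cks2 were below every model library but above every normal one, and its change against normal lung was 1.18 ± 0.20, adjusted p = 0.00332 in model lung and 0.68 ± 0.20, adjusted p = 0.0588 in nanozyme lung. Cdk1 changed by 1.28 ± 0.22, Ccnb1 by 1.41 ± 0.17 and Foxm1 by 0.98 ± 0.15 in model lung, with normal libraries at 2.57, 1.62 and 1.88 FPKM for Cdk1.

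The kinases of mitosis, the spindle checkpoint and the anaphase-promoting complex were higher too. Aurora kinase B (Aurkb) and survivin (Birc5) belong to the chromosomal passenger complex, Aurka and Plk1 act at the centrosomes and spindle poles, Bub1, Bub1b and Ttk delay anaphase until all chromosomes are attached, and Cdc20 and Ube2c serve the ubiquitin ligase that ends that delay. All 9 rose in model lung. Birc5 was at 13.5, 18.1 and 12.9 FPKM in nanozyme lungs, 15.3, 14.8 and 12.1 FPKM in model lungs and 2.05, 2.42 and 2.396 FPKM in normal lungs. After Mki67 it had the largest change of the 51 genes in model lung (2.19 ± 0.15, adjusted p = 0.000113), and it had the largest in nanozyme lung (2.26 ± 0.15, adjusted p = 0.000251). Bub1b was at 7.09, 8.302 and 5.32 FPKM in nanozyme lungs, 7.54, 7.04 and 7.83 FPKM in model lungs and 1.93, 2.33 and 2.002 FPKM in normal lungs. Aurka was at 4.41, 8.05 and 4.51 FPKM in nanozyme lungs, 8.35, 6.31 and 7.13 FPKM in model lungs and 3.63, 2.704 and 3.23 FPKM in normal lungs. The nanozyme libraries of Aurka were split, with replicate 2 inside the model range and replicates 1 and 3 below it, and the gene was not called against normal lung (0.63 ± 0.21, adjusted p = 0.0813), whereas the related kinase Aurkb was called (1.79 ± 0.16, adjusted p = 0.000552). Ube2c was at 16.4, 19.3 and 13.1 FPKM in nanozyme lungs, 21.9, 17.2 and 16.7 FPKM in model lungs and 3.25, 3.92 and 3.73 FPKM in normal lungs and changed by 2.07 ± 0.16, adjusted p = 0.00018 in model lung. Cdc20 was at 13.7, 16.9 and 9.94 FPKM in nanozyme lungs, 17.6, 12.7 and 14.9 FPKM in model lungs and 7.97, 7.41 and 7.42 FPKM in normal lungs and changed by 0.89 ± 0.18, adjusted p = 0.0068. In normal lung Cdc20 was higher than Ube2c in every library by FPKM, and in model and nanozyme lung it was lower in every library.

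The genes of the spindle and of cytokinesis held both genes that were not called in either comparison with normal lung. Prc1, a bundler of midzone microtubules, was at 8.91, 10.03 and 5.22 FPKM in nanozyme lungs, 8.25, 6.46 and 11.8 FPKM in model lungs and 3.74, 3.13 and 2.78 FPKM in normal lungs, and Tpx2, which nucleates spindle microtubules, was at 7.53, 8.18 and 4.87 FPKM in nanozyme lungs, 7.75, 7.59 and 8.35 FPKM in model lungs and 1.83, 1.53 and 1.98 FPKM in normal lungs. Both rose in model lung (1.19 ± 0.26, adjusted p = 0.00797 for Prc1 and 1.68 ± 0.17, adjusted p = 0.000446 for Tpx2). The spindle motor Kif11 (1.23 ± 0.13), the cytokinesis motors Kif20a (1.21 ± 0.17) and Kif23 (0.95 ± 0.14) and the microtubule-binding protein gene Nusap1 (1.51 ± 0.17) rose as well. Ect2, which activates RhoA at the cleavage furrow, was at 3.41, 4.68 and 2.73 FPKM in nanozyme lungs, 4.27, 3.49 and 5.87 FPKM in model lungs and 2.96, 2.37 and 2.78 FPKM in normal lungs. Its model libraries were all above its normal ones, but the change missed the threshold (0.56 ± 0.20, adjusted p = 0.0528). Stmn1, which encodes the microtubule destabiliser stathmin and is expressed outside the cell cycle too, was at 95.2, 97.5 and 106 FPKM in nanozyme lungs, 82.6, 62.98 and 61.7 FPKM in model lungs and 70.9, 91.9 and 77.2 FPKM in normal lungs. It was the most abundant of the 51 genes, its model and normal libraries overlapped, and the change was -0.21 ± 0.14, adjusted p = 0.265. In nanozyme lung every library was above every model and normal library, without passing the test against either (0.53 ± 0.14, adjusted p = 0.181 against model and 0.32 ± 0.14, adjusted p = 0.175 against normal lung).

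At centromeres and on chromosomes, Cenpa encodes the histone H3 variant that marks centromeres, Cenpe a kinetochore motor and Cenpf a kinetochore protein. Cenpa was at 17.6, 13.5 and 12.99 FPKM in nanozyme lungs, 14.1, 13.4 and 10.5 FPKM in model lungs and 7.18, 4.89 and 6.04 FPKM in normal lungs, with a change of 0.96 ± 0.17, adjusted p = 0.00387 in model lung. Cenpe was at 1.92, 2.28 and 1.44 FPKM in nanozyme lungs, 1.94, 1.99 and 2.27 FPKM in model lungs and 0.6501, 0.533 and 0.4001 FPKM in normal lungs, with a change of 1.01 ± 0.15, adjusted p = 0.00185. Cenpf was at 1.69, 1.91 and 1.03 FPKM in nanozyme lungs, 1.63, 1.31 and 1.94 FPKM in model lungs and 0.768, 0.673 and 0.694 FPKM in normal lungs, with a change of 0.61 ± 0.17, adjusted p = 0.0205. The call of Cenpf in model lung ended without model replicate 3 or any 1 normal library, and in nanozyme lung Cenpf was not called (0.56 ± 0.17, adjusted p = 0.0607). Mki67, the gene of the proliferation marker Ki-67 that coats mitotic chromosomes, was at 11.3, 15.3 and 8.29 FPKM in nanozyme lungs, 11.9, 14.6 and 14.2 FPKM in model lungs and 1.93, 1.71 and 1.74 FPKM in normal lungs. Its change of 2.38 ± 0.19, adjusted p = 0.000194 was the largest of the set in model lung, and in nanozyme lung, at 2.14 ± 0.19, adjusted p = 0.000636, it came after that of Birc5. Top2a, whose topoisomerase untangles sister chromatids, was at 15.4, 21.3 and 12.97 FPKM in nanozyme lungs, 19.5, 17.8 and 21.5 FPKM in model lungs and 5.403, 4.303 and 4.74 FPKM in normal lungs and changed by 1.83 ± 0.17, adjusted p = 0.000333. Hmgb2, a chromatin protein that is also made outside mitosis, was at 51.2, 52.2 and 45.7 FPKM in nanozyme lungs, 47.97, 51.9 and 41.6 FPKM in model lungs and 19.04, 19.5 and 18.97 FPKM in normal lungs and changed by 1.25 ± 0.11, adjusted p = 0.000228 in model lung. The 6 nanozyme and model libraries lay above the 3 normal libraries for each gene of this paragraph.

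**Figure D3:**
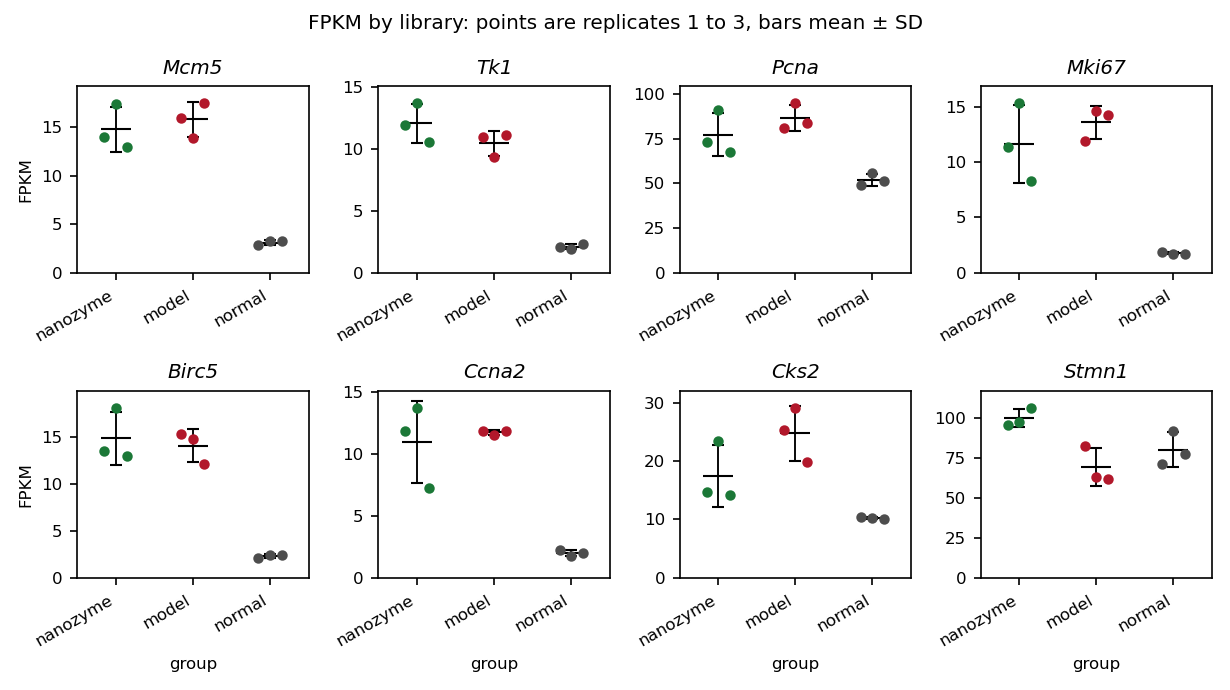
FPKM (vertical axes, from 0) of 8 genes in the nanozyme, model and normal groups. Points are the 3 libraries of a group in the order of their replicate number and black bars are the mean ± SD. Nanozyme and model points lie above all normal points for 7 genes, and for Stmn1 the model and normal points overlap.

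**Figure D4:**
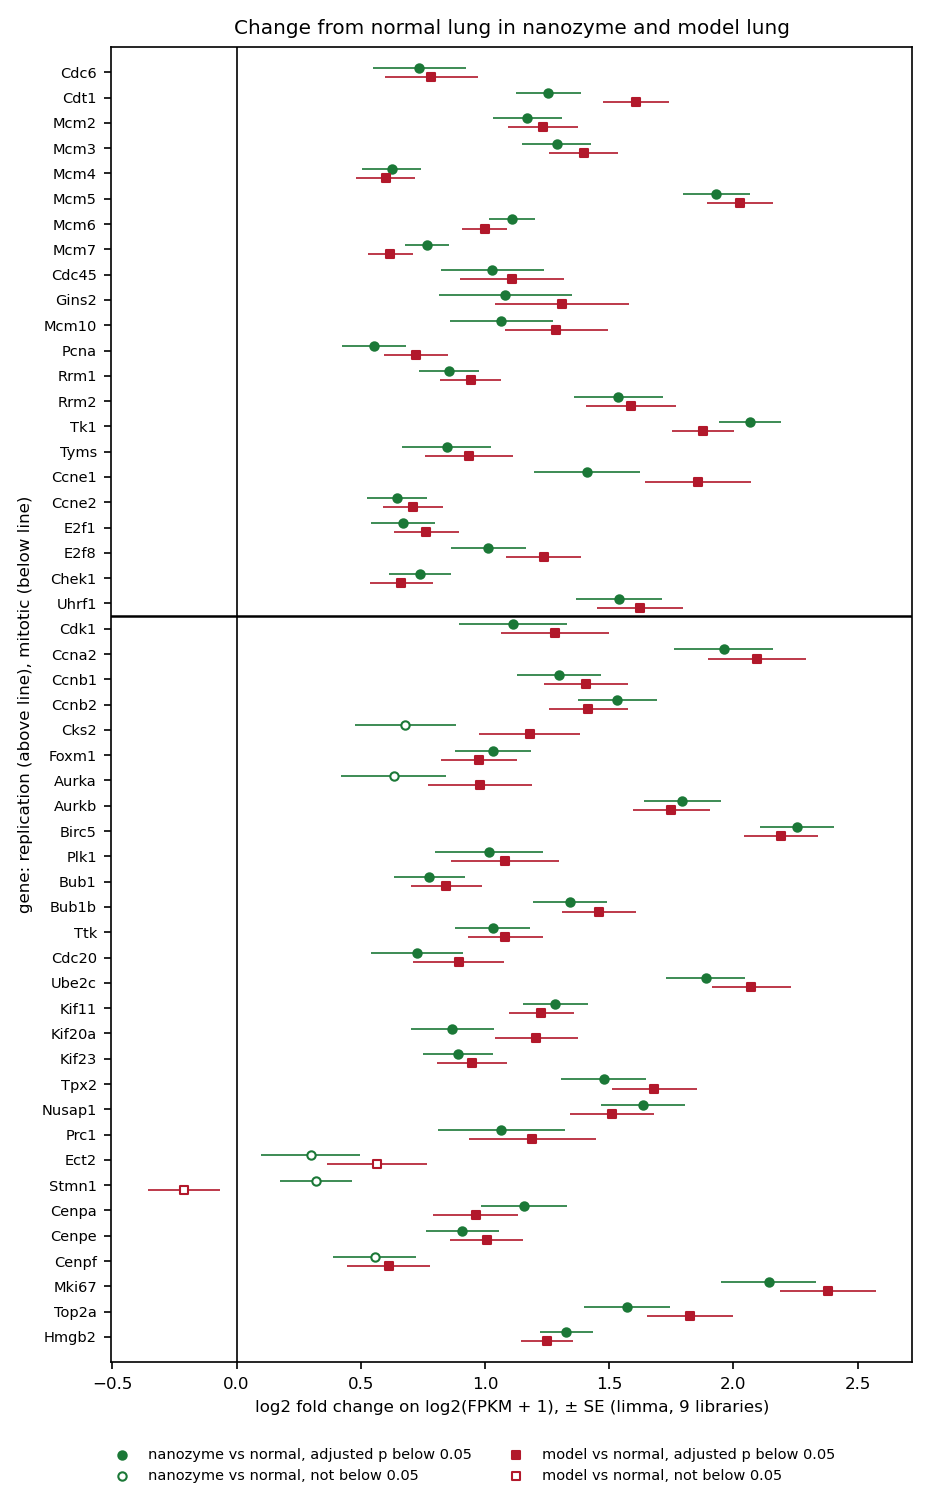
Log2 fold change ± SE (horizontal axis) of the 51 genes in nanozyme (green circles) and model lung (red squares), each against normal lung. Filled symbols have an adjusted p below 0.05. All symbols but that of Stmn1 in model lung lie right of 0, and the rises run from 0.60 to 2.38 in model lung.

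Replication and mitotic genes had medians of like size in each library. As a level per library, the median difference from the mean of the normal libraries was taken over each kind of gene. Over the 22 replication genes it was 0.98, 1.27 and 0.78 in nanozyme replicates 1 to 3, 1.17, 0.98 and 1.18 in the model libraries and -0.047, 0.0095 and 0.043 in the normal libraries. Over the 29 mitotic genes it was 1.22, 1.26 and 0.83 in nanozyme libraries, 1.28, 1.14 and 1.12 in model libraries and 0.068, -0.041 and -0.014 in normal libraries. The mitotic median minus the replication median ran from -0.0079 to 0.23 in nanozyme, from -0.054 to 0.16 in model and from -0.057 to 0.11 in normal libraries, so the 3 groups overlapped. Summed over all 51 genes, FPKM was 612, 712 and 549.6 in nanozyme libraries, 654, 610.5 and 621 in model libraries and 289, 306 and 296 in normal libraries. Among the nanozyme libraries, replicate 2 was the highest of the 3 for 43 of the 51 genes, and for 33.5% of all tested genes. Replicate 3 was the lowest for 47 of the 51 genes, and for 22.7% of all tested genes.

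**Figure D5:**
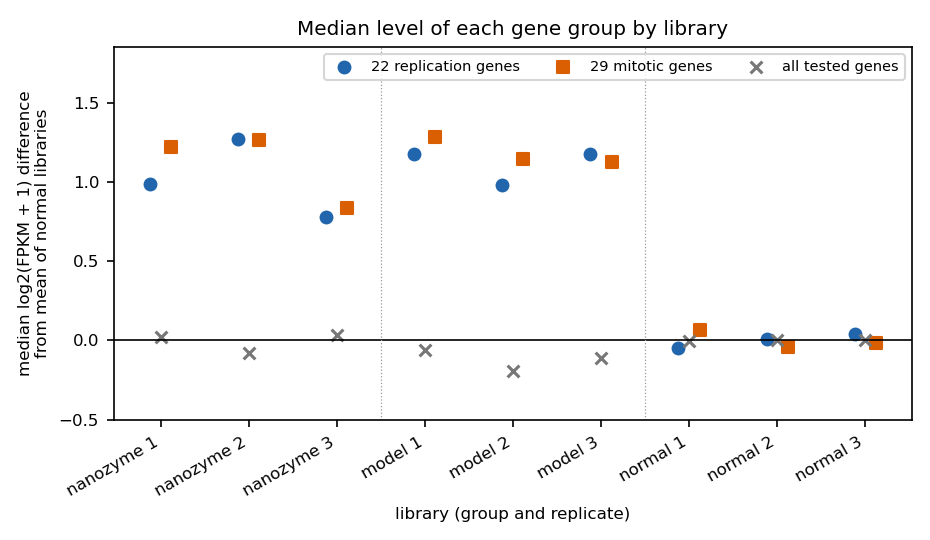
Median log2(FPKM + 1) difference from the mean of the normal libraries (vertical axis) in each library, for 22 replication genes (circles), 29 mitotic genes (squares) and all tested genes (crosses). The nanozyme and model libraries lie between 0.78 and 1.28 for both kinds of gene, and the crosses stay between -0.19 and 0.035.

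In the direct comparison of nanozyme with model lung no gene of the set passed the test. By limma 0 of the 51 genes were called in either direction, as for 0.00% of all tested genes, and 3 genes (Cks2, Stmn1 and Cdt1) had an unadjusted p below 0.05, against 22.1% of all tested genes. The median change was -0.084 over the replication genes and -0.099 over the mitotic genes, against 0.094 over all tested genes. The nanozyme mean lay between the normal and the model mean for 37 genes and above both for 14. The share of all tested genes with each order of means was not computed. The fitted change was negative for 37 of the 51 genes and for 5401 of the 14540 tested genes. The sign of 7 of the smallest changes turned with median-of-ratios scaling. In this fit of all 9 libraries, the 95% interval of the change lay within 1 log2 unit of 0 for all 51 genes and within 0.5 for 29. These intervals hold gene by gene and on the scale with a pseudocount of 1. They rest on a fit that includes nanozyme replicate 2, without which Cks2 changed by -0.72 ± 0.15. In the fit of all 9 libraries the lowest bound was -0.96, for Cks2, and the highest 0.86, for Stmn1. Groups did not overlap for 4 genes: Mcm7 (0.15 ± 0.09, adjusted p = 0.353) and Stmn1 were above the model range in all 3 nanozyme libraries, where 10.6% of tested genes were, and Cdt1 (-0.35 ± 0.13, adjusted p = 0.19) and Kif20a (-0.34 ± 0.17, adjusted p = 0.264) were below it, where 5.83% were.

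This comparison changed when nanozyme replicate 2 was left out. Without that library, 12.5% of tested genes were called higher and 9.64% lower in nanozyme than in model lung, whereas 0 of the 51 genes were higher and 3 lower. The 3 were Cks2 (-0.72 ± 0.15, adjusted p = 0.0145), Aurka (-0.59 ± 0.15, adjusted p = 0.028) and Cdt1 (-0.47 ± 0.12, adjusted p = 0.0308). Over all alternatives run, adjusted p went up to 0.55 for Cks2, 0.708 for Aurka and 0.529 for Cdt1. The medians over the replication and mitotic genes were then -0.21 and -0.20. Against normal lung, where 9.31% of tested genes were then higher and 4.26% lower, 43 of the 51 genes remained higher without nanozyme replicate 2, all of them among the 46 called with it, and the calls of Cdc20, Gins2 and Prc1 ended. Gene by gene, nanozyme replicate 1 lay below all model libraries for 18 of the 51 genes and nanozyme replicate 3 for 38, where the shares of all tested genes were 24.0% and 24.3%. Nanozyme replicate 2 lay above all model libraries for 20 of the 51 genes, against 21.5% of all tested genes, and within their range for 29, against 64.9%. Nanozyme replicates 1 and 2 lay above all normal libraries for 51 genes and replicate 3 for 50, where the shares of all tested genes were 40.8%, 35.4% and 42.4%.

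Other genes of the pathway were examined from lists drawn up beside the 51. Of all tested genes, 17.4% were called higher and 22.7% lower in model lung, and 8.39% higher and 5.50% lower in nanozyme against normal lung. Of 51 tested further replication genes (of 54 listed), 33 rose and 0 fell in model lung, with a median of 0.60, and 28 rose and 0 fell in nanozyme against normal lung. The smallest adjusted p belonged to Chaf1b, a histone chaperone subunit of replicating chromatin (1.5 ± 0.17, adjusted p = 0.000641), Clspn, which links stalled forks to the checkpoint kinase (1.17 ± 0.15, adjusted p = 0.00101), the chromatin remodeller gene Hells (0.88 ± 0.13, adjusted p = 0.0017) and the maintenance DNA methyltransferase gene Dnmt1 (0.78 ± 0.11, adjusted p = 0.00177). Of 55 tested further mitotic genes (of 56 listed), 46 rose and 0 fell in model lung, with a median of 1.02, and 41 rose and 0 fell in nanozyme against normal lung. Cdca3, which triggers the degradation of the mitosis inhibitor Wee1 (1.76 ± 0.16, adjusted p = 0.000275), the condensin subunit gene Ncapg (1.59 ± 0.14, adjusted p = 0.000275), Shcbp1 (1.70 ± 0.16, adjusted p = 0.000301) and the passenger complex gene Cdca8 (1.53 ± 0.15, adjusted p = 0.000406) had the smallest adjusted p. Clspn, Hells, Ncapg and Shcbp1, among others of these lists, were below 1 FPKM in every normal library. They passed the filter only through the nanozyme and model libraries, where they were high. In nanozyme against model lung limma called 0 genes of either list, and 3 replication and 1 mitotic gene had an unadjusted p below 0.05, against 22.1% of all tested genes. Without nanozyme replicate 2, the replication genes Pole2 and Chaf1b and the mitotic genes Gtse1, Ckap2l and Plk4 were called lower in nanozyme than in model lung and 0 of either list higher. The shares of all tested genes were then 9.64% lower and 12.5% higher. Against normal lung, 21 further replication and 39 further mitotic genes were then higher and 0 lower, where the shares of all tested genes were 9.31% and 4.26%.

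Regulators upstream of S phase were called in both directions, at shares that can be read against the 17.4% of all tested genes called higher and the 22.7% called lower in model lung. Among 8 G1 cyclins, CDKs and partners, Myc (1.0 ± 0.18, adjusted p = 0.0041) and Cdk2 (0.37 ± 0.13, adjusted p = 0.0499) rose and the cyclin gene Ccnd2 fell (-0.28 ± 0.10, adjusted p = 0.0451) in model lung, and Ccnd1, Ccnd3, Cdk4, Cdk6 and Cdc25a were not called. The calls of Cdk2 and Ccnd2 ended in most alternatives, among them without any 1 normal library, and that of Myc held. In nanozyme against normal lung Myc and Cdk2 were called higher and 0 of the 8 genes lower, and both calls ended in several alternatives, among them without normal replicate 1 or 3. Among 17 genes of the E2F, pocket protein and MuvB families, Rbl1, which encodes the E2F-bound pocket protein p107 (0.93 ± 0.16, adjusted p = 0.0032), and the E2F partner gene Tfdp1 (0.49 ± 0.11, adjusted p = 0.0107) rose, while the MuvB subunit gene Lin52 (-0.86 ± 0.14, adjusted p = 0.00299) and the E2F genes E2f5 (-0.53 ± 0.10, adjusted p = 0.00439) and E2f6 (-0.43 ± 0.09, adjusted p = 0.00729) fell. The median over these 17 genes was 0.087 in model lung, and in nanozyme against normal lung Rbl1 was called higher and Lin52 lower. Both of these calls ended without any 1 normal library, and that of Lin52 also without nanozyme replicate 1 or 2, with no filter and with equal column sums. Without nanozyme replicate 2, E2f2 and Rbl2 were called higher in nanozyme than in model lung. Mybl2, which encodes B-MYB, was not called in model lung (0.42 ± 0.16, adjusted p = 0.0647), and it was called with median-of-ratios scaling (0.51, adjusted p = 0.0351) and with quantile normalization (0.52).

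CDK inhibitors, which block the cycle, did not move together. Of 7 listed, 6 were tested and Cdkn2a did not pass the filter. The p57 gene Cdkn1c was at 26.01, 14.2 and 31.1 FPKM in nanozyme lungs, 23.2, 12.8 and 12.8 FPKM in model lungs and 30.8, 46.2 and 43.9 FPKM in normal lungs, and it fell in model lung (-1.29 ± 0.33, adjusted p = 0.0149). The p27 gene Cdkn1b also fell (-0.43 ± 0.12, adjusted p = 0.0238), whereas Cdkn2d, which encodes an inhibitor of CDK4 and CDK6, rose (0.99 ± 0.21, adjusted p = 0.00778). The call of Cdkn1b ended with equal column sums (-0.36, adjusted p = 0.0857) and with median-of-ratios scaling (-0.29, adjusted p = 0.0651). It also ended without model replicate 2 or 3 or any 1 normal library, at changes of -0.45 to -0.39. The call of Cdkn1c ended without model replicate 2 or 3 or normal replicate 2 or 3, at changes of -1.22 to -1.15. Cdkn1a, the p53 target that encodes p21, was at 44.4, 77.0 and 38.7 FPKM in nanozyme lungs, 86.4, 106 and 86.9 FPKM in model lungs and 63.1, 65.5 and 67.1 FPKM in normal lungs. All model libraries of Cdkn1a were above the normal and the nanozyme ones, but neither change passed (0.50 ± 0.23, adjusted p = 0.112 for model against normal and -0.85 ± 0.23, adjusted p = 0.181 for nanozyme against model lung). Without nanozyme replicate 2, Cdkn1a was lower in nanozyme than in model lung (-1.14, adjusted p = 0.000857) and higher in model than in normal lung (adjusted p = 0.00755), and over the other alternatives the first was not called. The rise in model against normal lung was also called by limma with only those 2 groups fitted (0.50, adjusted p = 0.0119). Cdkn2b (0.23 ± 0.15, adjusted p = 0.257) and Cdkn2c (-0.32 ± 0.27, adjusted p = 0.364) were not called in model lung. In nanozyme against normal lung Cdkn2d was the 1 inhibitor called (0.80 ± 0.21, adjusted p = 0.0412), and that call ended in most alternatives, among them no filter (adjusted p = 0.0945), equal column sums (0.0513), the 2 groups alone (0.051), and without any 1 normal library. Without nanozyme replicate 2, Cdkn2c and Cdkn1b were called higher in nanozyme than in model lung, Cdkn1a was called lower than in both model and normal lung, and Cdkn2d was called higher than in normal lung.

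Markers of some cell types rose along with the cell cycle genes, while those of others fell, were mixed or were mostly not called. Their part in the result was not tested. The counts below can be read against the 17.4% of all tested genes called higher and the 22.7% called lower in model lung. In model lung 9 of 10 markers of monocytes and recruited macrophages rose, with summed levels of 812 to 1304 FPKM in nanozyme, 1186 to 1629 FPKM in model and 314 to 574 FPKM in normal libraries. All 8 mature neutrophil markers rose, with sums of 1118 to 3306 FPKM in nanozyme, 2466 to 3211 FPKM in model and 37.4 to 46.6 FPKM in normal libraries. Of these markers, Ly6g, Cxcr2 and Mmp8 were below 1 FPKM in every normal library and passed the filter only through the nanozyme and model libraries. In nanozyme replicates 1 and 3 the neutrophil sum was 1118 and 1328 FPKM, below every model library, and in replicate 2 it was 3306 FPKM. Of 9 tested T and NK cell markers 6 rose, with sums of 76.8 to 96.1 FPKM in nanozyme, 78.03 to 101 FPKM in model and 24.6 to 33.95 FPKM in normal libraries. Alveolar macrophage markers, of which Chil3 and Marco rose and the other 6 of 8 were not called, summed to 706 to 797 FPKM in nanozyme, 623 to 743 FPKM in model and 296 to 334 FPKM in normal libraries. Chil3 alone held 408 to 539 FPKM of that sum in nanozyme, 436 to 576 FPKM in model and 135 to 147 FPKM in normal libraries. B and plasma cell markers, of which 1 of 7 rose, summed to 198 to 527 FPKM in nanozyme, 170.2 to 190.3 FPKM in model and 143 to 168 FPKM in normal libraries. Endothelial markers (0 of 8 higher and 3 lower) summed to 763 to 1186 FPKM in nanozyme, 406 to 851 FPKM in model and 970.1 to 1159.8 FPKM in normal libraries, and fibroblast markers (3 higher and 2 lower of 8) to 874 to 2479 FPKM in nanozyme, 622 to 1138 FPKM in model and 1833 to 2320.2 FPKM in normal libraries. Inmt, which fell in model lung, held 407 to 2007 FPKM of the fibroblast sum in nanozyme, 90.1 to 439 FPKM in model and 1319 to 1863 FPKM in normal libraries, whereas the collagen genes Col1a1, Col1a2 and Col3a1 rose in model lung.

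Of the granulocyte progenitor list 3 of 8 genes were tested, and Prtn3 (0.98 ± 0.20, adjusted p = 0.00595) and Camp (2.34 ± 0.40, adjusted p = 0.00333) rose in model lung, while Ltf was not called. Prtn3 was at 1.71 to 2.68 FPKM in nanozyme, 1.22 to 1.99 FPKM in model and 0.0782 to 0.487 FPKM in normal libraries. It passed the filter only through the nanozyme and model libraries. Camp was at 2.52 to 9.93 FPKM in nanozyme, 6.1 to 10.8 FPKM in model and 0.369 to 1.38 FPKM in normal libraries, and both genes were also higher in nanozyme than in normal lung. The genes Elane, Mpo and Ctsg reached at most 1.07, 1.48 and 1.13 FPKM in nanozyme libraries and 0.0706, 0.282 and 0.196 FPKM in model libraries. In nanozyme replicate 2 they were at 0, 0.0599 and 0 FPKM. Fcnb was at 0.0991 to 0.409 FPKM in nanozyme and 0.125 to 0.437 FPKM in model libraries. Ms4a3 reached at most 0.209 FPKM in nanozyme and 0.155 FPKM in model libraries. All of these untested genes were listed at 0 in all normal libraries. Summed over all 8 genes of that list, which include the abundant secreted-protein gene Ltf, the level was 34.3 to 41.3 FPKM in nanozyme, 44.9 to 277 FPKM in model and 8.46 to 301 FPKM in normal libraries. The erythroid list, dominated by globins, summed to 131 to 790.3 FPKM in nanozyme, 173 to 319.5 FPKM in model and 3528 to 4253 FPKM in normal libraries. Alas2, which encodes the erythroid enzyme that starts heme synthesis, was at 3.51, 1.06 and 0.297 FPKM in nanozyme libraries, 1.1, 0.378 and 0.589 FPKM in model libraries and 8.16, 9.84 and 8.38 FPKM in normal libraries. It was lower than in normal lung in model lung (-2.55 ± 0.40, adjusted p = 0.00232) and in nanozyme lung (-2.09 ± 0.40, adjusted p = 0.0124).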

How the data were processed

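Lung RNA of 9 mice (3 per group) was enriched with oligo(dT) beads, per the labels' protocols, and reads were aligned with HISAT2 to GRCm38, per the submitters' processing notes. Gene models, counting tool, strand setting and versions are not given in the sources used here. The authors deposited 1 table of FPKM values with 25526 names and 1 column per library, tied to samples through the library names in the labels. Read counts could not be recovered, since ratios of values under 0.3 FPKM did not fall on steps (at most 3.06% in 1 bin of 0.005 log2 units).

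Genes with at least 1 FPKM in at least 3 libraries (14540) were transformed to log2(FPKM + 1) and tested with limma 3.58.1 under R 4.3.3, two-sided, using 1 coefficient per group, an intensity trend and Benjamini-Hochberg adjustment within each of 3 comparisons. The fit was tested on simulated data. An exact permutation test of 3 against 3 libraries cannot give a p below 0.10 and was not run. The 51 genes, their division into replication and mitotic genes and the pathway and marker lists (226 of 228 genes matched) were chosen with earlier results of these data known, so no test was made over a list. Genes given in every library are the 3 or fewer with the highest mean FPKM of each role and those whose call differs from most of their role. Mcm5, Cdt1, Cdc6, Mcm10, Tyms, E2f8 and Mybl2 were added after their values were seen. Pathway genes are up to 4 per list with the smallest adjusted p, lists with 5 or fewer calls in full, and every tested CDK inhibitor. The last 30 bases of 40 of 46 RefSeq promoter windows lay in sense in a GENCODE vM21 transcript of the same gene. Alternatives were another pseudocount, other filters and scalings, fits of 2 groups, no trend, a replicate block and leaving out each library.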

Additional observations from a re-analysis of the deposited data

How the results depend on the processing

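No gene of the set was called lower against normal lung in any alternative run. In model against normal lung, 48 to 50 of the 51 genes were higher and 0 lower in all settings that kept the 51 genes. Ect2 was added in 6 of them, including median-of-ratios scaling and quantile normalization, and Cenpf was lost without model replicate 3 or any 1 normal library. In nanozyme against normal lung 34 to 47 genes were higher and 0 lower. The count was 34 without normal replicate 3, 36 without normal replicate 1, 41 with no filter and 43 with only the 2 groups compared. A minimum mean of 5 FPKM left 31 genes of the set, of which 30 were higher in model and 28 in nanozyme than in normal lung. With it, fewer genes were called overall: 2152 lower in model lung, and 807 higher and 478 lower in nanozyme lung, against normal lung. With quantile normalization 1326 genes were lower in nanozyme than in normal lung.

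Medians depended on the pseudocount. With 0.1 in place of 1, the median change in model against normal lung was 1.46 over the replication and 1.61 over the mitotic genes, and in nanozyme against normal lung 1.36 and 1.56. The mitotic median in model lung was 1.41 over the genes with a mean of at least 5 FPKM, 1.32 with median-of-ratios scaling and 1.11 after rescaling without the 100 most abundant genes. These 2 scalings moved the median of all tested genes by 0.13 and -0.11 in model against normal lung, and the first moved it by -0.10 in nanozyme against model lung. The higher share of calls in model against normal lung was 43.4%, against 55.3% and 32.9% under them and 54.2% with equal column sums. In nanozyme against normal lung it was 60.4%, against 47.0% with quantile normalization, 47.3% after rescaling without the 100 most abundant genes and 70.4% with equal column sums.

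Leaving out 1 library at a time gave 1920 to 3836 lower genes in model against normal lung, and 600 to 1353 higher and 148 to 917 lower in nanozyme than in normal lung. In nanozyme against model lung it gave 0 to 1814 higher and 0 to 1402 lower genes, and 0 to 3 lower genes of the set. The highest of these counts came without nanozyme replicate 2. With no filter 2 genes were higher and 7 lower in nanozyme than in model lung, and 0 of them were in the set. The median change of the replication genes ran from 1.05 to 1.23 in model against normal lung and from -0.21 to 0.012 in nanozyme against model lung, where that of the mitotic genes ran from -0.20 to 0.034. Both turned positive without nanozyme replicate 3. The cause was not tested.

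Small changes between nanozyme and model lung, none of them called, turned sign in some settings. With median-of-ratios scaling this held for Kif11 (-0.041), Birc5 (-0.046), Mcm6 (-0.0035), Mcm4 (-0.086), Hmgb2 (-0.039), Aurkb (-0.059) and Foxm1 (-0.030), and with quantile normalization for Kif11 (-0.062), Chek1 (-0.067), Mcm4 (-0.041), Aurkb (-0.056) and Foxm1 (-0.11). Leaving out 1 library at a time, the change ran from -0.065 to 0.17 for Aurkb, -0.076 to 0.15 for Birc5, -0.15 to 0.034 for Bub1, -0.24 to 0.035 for Bub1b, -0.31 to 0.11 for Ccna2, -0.28 to 0.018 for Ccnb1, -0.0072 to 0.26 for Ccnb2, -0.13 to 0.012 for Ccne2 and -0.33 to 0.022 for Cdc20. It ran from -0.31 to 0.12 for Cdc45, -0.24 to 0.094 for Cdc6, -0.39 to 0.0027 for Cdk1, -0.20 to 0.016 for Cenpe, -0.16 to 0.10 for Cenpf, -0.037 to 0.18 for Foxm1, -0.0076 to 0.15 for Hmgb2, -0.0069 to 0.13 for Kif11 and -0.18 to 0.041 for Kif23. For the others it ran from -0.15 to 0.048 for Mcm2, -0.059 to 0.12 for Mcm4, -0.18 to 0.047 for Plk1, -0.30 to 0.13 for Prc1, -0.19 to 0.012 for Rrm1, -0.22 to 0.076 for Rrm2, -0.15 to 0.073 for Ttk, -0.22 to 0.039 for Tyms and -0.25 to 0.064 for Uhrf1.

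Replicate numbers recur in each group, but the labels do not say that they pair the mice. Deviations from the group means of same-numbered libraries correlated between -0.33 and 0.23 across genes. In 4 of 18 pairings of a library with another group the own number correlated best. With 3 libraries per group, these values cannot settle whether the numbers pair the mice. With a replicate block 49 genes of the set were higher in model and 44 in nanozyme than in normal lung, and 0 changed in nanozyme against model lung. Read depth is unknown, so the counting error of genes near 1 FPKM, such as Cdc6, Chek1 and Cenpf, could not be given. Normal replicate 3 lay near the middle of normal replicates 1 and 2 for some variable genes. Normal replicates 1 to 3 were at 299.6, 8.01 and 142.9 FPKM for Ltf and 14.5, 4.03 and 9.05 FPKM for Lum, but 185, 220 and 436 FPKM for Apoe. Over the 51 genes, replicate 3 was the highest normal library for 15 and the lowest for 9. Whether the normal libraries are independent was not tested.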
